A study of Mus musculus with 32 samples.

Results

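Tumours that were rich in epithelial transcripts were compared with tumours that were rich in stromal transcripts, among 32 mouse pancreatic tumours profiled by bulk RNA sequencing. For each library, a score was formed as the mean log2(CPM + 1) of 5 epithelial genes (Epcam, Krt8, Krt18, Krt19 and Cdh1) minus that of 4 stromal genes (Col1a1, Col3a1, Dcn and Lum), where CPM scales each count to the library total. Within each of 4 treatment groups of 8 libraries, the 4 with the highest score formed the epithelial-rich set and the other 4 the stroma-rich set, which gave 16 and 16 of the 32 libraries. The sets were therefore chosen from expression measured in the same libraries that were then compared.

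All tumours grew from KPC36 cells, a line labelled as malignant, in mice whose strain, sex and age the labels do not give. The groups were tumours treated with carbon ions, untreated controls of the carbon-ion arm, tumours treated with photons and untreated controls of the photon arm. Tumours were collected on day 4 or day 7 after treatment, but the day of each library was not part of the labels. The labels name 1 cell line and do not state its genotype, the radiation dose, the site of growth or whether each library came from a separate mouse, so p-values measure only the spread between these samples. Carbon ions release most of their energy where they stop in tissue, whereas photons lose theirs all along the beam.

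Pancreatic ductal adenocarcinoma is a cancer of glandular epithelium that is surrounded by a dense stroma of fibroblasts, collagen, vessels and immune cells. Epithelial cells are held together by tight junctions, adherens junctions and desmosomes, and the transcriptional repressors of the Snail and Zeb families lower the expression of these junctions in cells that turn mesenchymal. Fibroblasts make most of the collagen, and separate fibroblast states are known for contraction, for inflammatory signals and for resident identity around vessels.

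Library totals ranged from 13891863 to 71645903 estimated counts. Titles of the libraries begin with D or M, and the labels do not explain the letters. D occurred in the carbon arm only, in 3 epithelial-rich and 1 stroma-rich controls and in 1 epithelial-rich and 2 stroma-rich irradiated libraries. The title numbers of photon controls and photon-irradiated libraries do not overlap, and the labels do not say what the numbers stand for, so whatever they mark and the photon effect cannot be told apart. The label for the whole tissue is malignant, but genes of other cell types were expressed in every library: the summed expression of 17 macrophage and monocyte genes ranged from 589 to 1882 CPM, and that of 14 endothelial genes from 357 to 1022 CPM.

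The 9 score genes are given as a description, because they formed the sets. The score ranged from -2.21 to 0.64 over all libraries, with a mean of 0.0274 ± 0.4115 (SD, n = 16) in the epithelial-rich set and -0.8576 ± 0.6766 (SD, n = 16) in the stroma-rich set. Membership is relative to each group. The highest epithelial-rich score was -0.0052 in photon controls and -0.1613 in photon-irradiated tumours. Both lay below the score of stroma-rich carbon-irradiated replicate 6, at 0.1716. Mean log2 expression of the 5 epithelial genes was 8.82 ± 0.27 in the epithelial-rich set and 8.56 ± 0.26 in the stroma-rich set. For the 4 stromal genes it was 8.79 ± 0.35 and 9.42 ± 0.55. Over all libraries the sets thus lay farther apart on the stromal side of the score than on the epithelial side. In carbon-ion controls the epithelial side hardly differed, at 8.84 in the epithelial-rich and 8.76 in the stroma-rich libraries. Mean Krt19 there was 640.5 and 641.6 CPM, and the highest epithelial mean, 9.20 in replicate 8, lay in the stroma-rich set. Carbon-irradiated tumours had epithelial means of 9.08 and 8.57.

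Epcam, an adhesion molecule of epithelium, had a lowest, median and highest level of 16.5, 35.1 and 83.6 CPM in the epithelial-rich set and of 10.3, 29.4 and 62.9 CPM in the stroma-rich set. Krt19, a keratin of ductal cells, had 356, 580 and 832 CPM against 256, 446 and 753 CPM. The fibrillar collagen Col3a1 had 1126, 2204 and 4262 CPM against 1743, 3797 and 8021 CPM, and Dcn, which encodes the proteoglycan decorin, had 36.0, 57.4 and 96.4 CPM against 37.7, 112 and 264 CPM. For each of the 9 score genes the ranges of the sets overlapped.

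The boundary between the sets was narrow in the carbon arm. In carbon-ion controls the lowest epithelial-rich score was -0.0902 and the highest stroma-rich score was -0.1035. In carbon-irradiated tumours these values were 0.1852 and 0.1716. The gap was wider in photon controls, at -0.7925 against -1.1987, and in photon-irradiated tumours, at -0.2654 against -0.3937. Leaving Krt8, Krt18 or Dcn out of the score exchanged 1 pair of carbon-ion controls between the sets, and leaving Krt19 out exchanged 1 pair of carbon-irradiated tumours. Without Epcam 8 libraries changed sets, 4 of them photon-irradiated, and 4 libraries changed sets without Col1a1, without Col3a1 or with each score gene scaled to unit variance. The sets are therefore a cut through a continuous range, and results are also given for the score as a continuous measure.

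**Figure D1:**
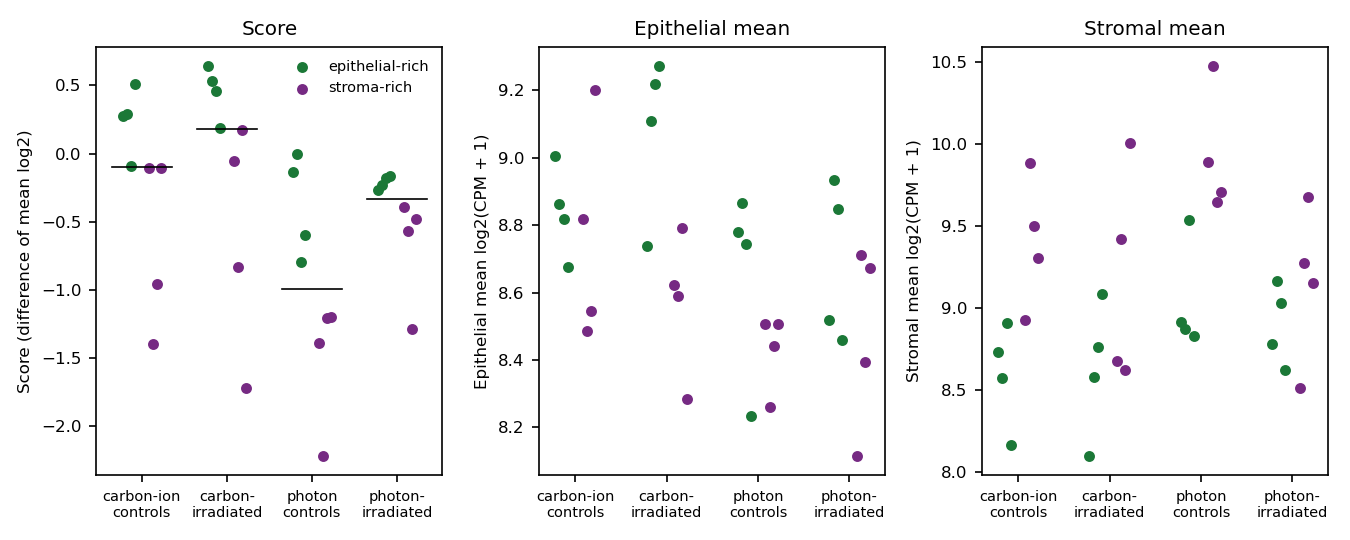
Score (left), mean log2(CPM + 1) of the 5 epithelial genes (middle) and of the 4 stromal genes (right) in the 4 treatment groups, with 1 point per library coloured by set and a line midway between the libraries on either side of the boundary. In the carbon arm those libraries nearly touch, at scores of -0.0902 and -0.1035 in controls and of 0.1852 and 0.1716 in irradiated tumours.

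The score itself did not differ detectably between treatment groups by two-sided exact permutation tests over 12870 splits of 8 against 8 libraries, adjusted over 4 comparisons. The mean score of carbon-irradiated tumours was 0.12 higher than that of their controls (exact p = 0.741, adjusted 0.741), and that of photon-irradiated tumours 0.50 higher (exact p = 0.103, adjusted 0.205). Carbon-ion controls were 0.74 higher than photon controls (exact p = 0.0510, adjusted 0.204), and carbon-irradiated tumours 0.37 higher than photon-irradiated tumours (exact p = 0.266, adjusted 0.354).

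Outside the score, most genes that differed between the sets were lower in epithelial-rich tumours, and they included collagen, matrix and fibroblast genes. Of 20465 genes tested, 266 differed at an adjusted p under 0.05, which is 1.3% (edgeR quasi-likelihood test with treatment group as a block, Benjamini-Hochberg adjustment). Of these, 20 were higher (0.0977%) and 246 lower (1.2%) in the epithelial-rich set, while the median log2 fold change over all genes was -0.01. The difference had the same sign in all 4 treatment groups for 258 of the 266 (97%), against 3817 of all genes tested (18.7%), which is a count over the same libraries that gave the calls. Fewer cells of a type and less RNA per cell cannot be told apart in bulk tissue. Genes made by the same cells as the score genes follow from how the sets were formed, so their differences describe the sets and support nothing further.

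The number of genes called moved with the choice of libraries. Leaving out 1 library moved it by over 1.5 times for 18 of the 32 libraries, from 43 without photon-irradiated replicate 5 to 482 without photon control replicate 2. It was 18 after the exchange of the 1 pair of carbon-ion controls, carbon-ion control replicates 3 and 4, 54 without the carbon-irradiated group and 0 among libraries with M titles, where 1858 genes had an unadjusted p under 0.05 and all 266 genes kept their sign. With the score as a continuous covariate in place of the sets, 1887 genes changed with the score (9.22%), of which 479 rose (2.34%) and 1408 fell (6.88%) as the score rose, and 258 of the 266 were among them. Values for that model are given as log2 change per unit of score. The genes named from it, and called list members outside the naming rule, were chosen after their values were seen.

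The promoters of 4 genes are shown because they stand for the junction genes that were higher, the repressor and the collagen that were lower, and the motif through which Snail and Zeb proteins repress junction genes. Each sequence is the 250 bases before the start of the RefSeq transcript in GRCm38.p6, written 5′ to 3′ on the strand of the gene. Capitals mark the E-box CAGGTG, which reads CACCTG on the other strand. F11r encodes a tight junction protein (chr1:171437311-171437560, plus strand), Cldn2 a claudin (chrX:139800558-139800807, plus strand), Snai1 the repressor Snail (chr2:167537945-167538194, plus strand) and Col1a2 a chain of type I collagen (chr6:4505368-4505617, plus strand).
F11r: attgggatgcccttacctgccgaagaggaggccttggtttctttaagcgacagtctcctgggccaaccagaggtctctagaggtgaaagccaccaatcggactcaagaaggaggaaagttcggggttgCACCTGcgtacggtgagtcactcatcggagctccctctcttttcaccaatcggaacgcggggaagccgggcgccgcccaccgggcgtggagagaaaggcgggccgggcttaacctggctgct
Cldn2: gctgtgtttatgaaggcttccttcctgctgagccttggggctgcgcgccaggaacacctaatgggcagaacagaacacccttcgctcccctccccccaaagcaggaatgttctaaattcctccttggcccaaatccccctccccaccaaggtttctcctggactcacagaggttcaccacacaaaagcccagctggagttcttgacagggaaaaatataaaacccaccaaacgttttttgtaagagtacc
Snai1: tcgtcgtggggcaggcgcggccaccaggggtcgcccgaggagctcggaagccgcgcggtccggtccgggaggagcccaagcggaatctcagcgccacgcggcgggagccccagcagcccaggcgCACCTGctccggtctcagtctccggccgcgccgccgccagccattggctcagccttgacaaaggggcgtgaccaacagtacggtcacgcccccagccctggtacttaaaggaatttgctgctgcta
Col1a2: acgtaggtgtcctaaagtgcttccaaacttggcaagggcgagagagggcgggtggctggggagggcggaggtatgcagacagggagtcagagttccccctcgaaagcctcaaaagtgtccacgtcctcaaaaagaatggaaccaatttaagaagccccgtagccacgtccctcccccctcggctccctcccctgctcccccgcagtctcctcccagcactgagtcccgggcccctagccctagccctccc
F11r and Snai1 each held 1 match, at 122 and 126 bases before the start, while Cldn2 and Col1a2 held none in these windows. The motif occurred in 4620 of 27025 promoter windows of this length (17.1%) and in 2023 of the 12883 windows of tested genes (15.7%). Among genes called between the sets it occurred in 4 of 13 windows of genes that were higher and in 21 of 171 windows of genes that were lower (12.3%). A match describes these letters only and is not evidence of binding.

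Among epithelial genes outside the score, few passed the test between the sets. Of 18 junction genes, 1 was called higher (against 0.0977% of all genes) and none lower, with a median log2 fold change of 0.23 and 17 of 18 above 0. The called gene was F11r, with a lowest, median and highest level of 91.2, 116.97 and 170 CPM in epithelial-rich and of 94.6, 101 and 120 CPM in stroma-rich tumours (here and below CPM is scaled by trimmed mean of M values). Its log2 fold change was 0.23 (SE 0.06, edgeR adjusted p = 0.0411), and its difference was above 0 in 3 of 4 groups. F11r was called in 11 of 32 fits that each left out 1 library. The sets did not overlap for F11r in carbon-irradiated tumours, where epithelial-rich libraries had 142.4 to 169.9 CPM and stroma-rich libraries 94.61 to 119.5 CPM, and overlapped in the other groups. Here and below, the share of all genes without overlap within a group was not counted.

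Along the score, 7 of the 18 junction genes rose and none fell, against 2.34% of all genes that rose. They were Ocln and Marveld2, which encode tight junction proteins, the desmosomal genes Dsp, Dsg2, Dsc2 and Pkp2, and F11r. The slope per unit of score was 0.44 for Ocln (edgeR adjusted p = 0.0215), 0.52 for Dsc2 (edgeR adjusted p = 0.00324) and 0.38 for Dsg2 (edgeR adjusted p = 0.000996). The claudin gene Cldn4, at 0.22 between the sets, was not called (edgeR adjusted p = 0.690).

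Cldn2, the claudin of leaky epithelia, was among the 10 named genes that were highest in epithelial-rich tumours. Its lowest, median and highest levels were 419, 635 and 904 CPM in the epithelial-rich set and 389, 536 and 692 CPM in the stroma-rich set. The log2 fold change was 0.30 (SE 0.07, edgeR adjusted p = 0.0250). The sets overlapped over all libraries, with the highest values in the epithelial-rich set, and did not overlap among carbon-irradiated tumours, at 757.3 to 903.5 CPM against 473.9 to 689.5 CPM.

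Of the classical, gastric-type programme of pancreatic cancer, 1 gene passed the test. Of 14 such genes 13 had a log2 fold change above 0, with a median of 0.48, and 1 was called higher (against 0.0977% of all genes). That gene was Ctse, which encodes the gastric protease cathepsin E (GRCm38 chr1:131638306-131675505). Its lowest, median and highest levels were 327, 596 and 894 CPM in epithelial-rich tumours and 228, 426 and 638 CPM in stroma-rich tumours, with a log2 fold change of 0.45 (SE 0.10, edgeR adjusted p = 0.0247). The sets did not overlap for Ctse in carbon-irradiated tumours, at 668.2 to 893.8 CPM against 349.4 to 496.4 CPM. Within that group 25.6% of all genes were called between the sets, so such a gap is not particular to these epithelial genes. Along the score, 4 of the 14 rose (against 2.34% of all genes), namely Ctse, Gata6, Cldn18 and Gkn1. Gata6, a transcription factor of the classical type, had a slope of 0.18 (edgeR adjusted p = 0.0327), and Gkn1, a gastrokine, one of 1.33 (edgeR adjusted p = 0.0405).

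Other epithelial lists held no gene called between the sets. The 8 genes of basement membrane contact were all above 0 with a median of 0.25, the 13 surface and secretory genes had a median of 0.27, and the 17 epithelial transcription factors and splicing regulators one of 0.13. Along the score 4, 3 and 2 of these genes rose and none fell, where 2.34% of all genes rose. The laminin chain gene Lamb3, whose product anchors epithelium to its basement membrane, had a slope of 0.46 (edgeR adjusted p = 0.00971). The splicing regulator Esrp1 had a log2 fold change of 0.44 between the sets (edgeR adjusted p = 0.475), and the factor Grhl2 one of -0.01 (edgeR adjusted p = 0.990).

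The genes named as highest in epithelial-rich tumours, with the same sign in 4 groups, were Mcpt2, Tinag, Ctse, Proc, Ccdc120, Paqr5, Cadm1, Sdcbp2, Cldn2 and Sema3e, and their log2 fold changes lay between 0.28 and 0.63. Mcpt2 encodes a mast cell protease, and mast cells have no marker among the score genes. None of the 40 lists was of mast cells, so the level of that cell type was not examined. It had a lowest, median and highest level of 17.5, 38.2 and 64.2 CPM in epithelial-rich tumours and of 13.1, 26.7 and 45.6 CPM in stroma-rich tumours (log2 fold change 0.63, SE 0.16, edgeR adjusted p = 0.0420), and it was called in 11 of 32 fits with 1 library left out. Proc encodes the anticoagulant protein C, and its log2 fold change was 0.38 (SE 0.09, edgeR adjusted p = 0.0374). The adhesion gene Cadm1 had 0.31 and the guidance cue Sema3e 0.28.

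Few mesenchymal transition genes passed the test. Of 11, 2 were lower in epithelial-rich tumours (against 1.2% of all genes) and none higher, with 4 above 0 and a median of -0.05. Snai1 was lower by a log2 fold change of -0.63 (SE 0.16, edgeR adjusted p = 0.0390; called in 13 of 32 fits with 1 library left out), and Zeb2, a related repressor that macrophages and fibroblasts also express, by -0.38 (edgeR adjusted p = 0.0416). Prrx1, a factor of mesenchyme, fell along the score with them (slope -0.58, edgeR adjusted p = 8.85e-05).

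Zeb1 had a lowest, median and highest level of 94.8, 110 and 124.49 CPM in epithelial-rich and of 88.4, 108 and 134 CPM in stroma-rich tumours, with a log2 fold change of 0.00 (SE 0.05, edgeR adjusted p = 0.973). Vim, the intermediate filament gene of mesenchymal cells, had 983, 1540 and 2040 CPM against 997, 1622 and 2044 CPM, with -0.02 (SE 0.10, edgeR adjusted p = 0.949). The ranges of both genes nearly coincided between the sets, and the sign of Vim changed under some other definitions of the sets, while that of Zeb1 changed with the scaling, with added terms and with libraries left out.

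**Figure D2:**
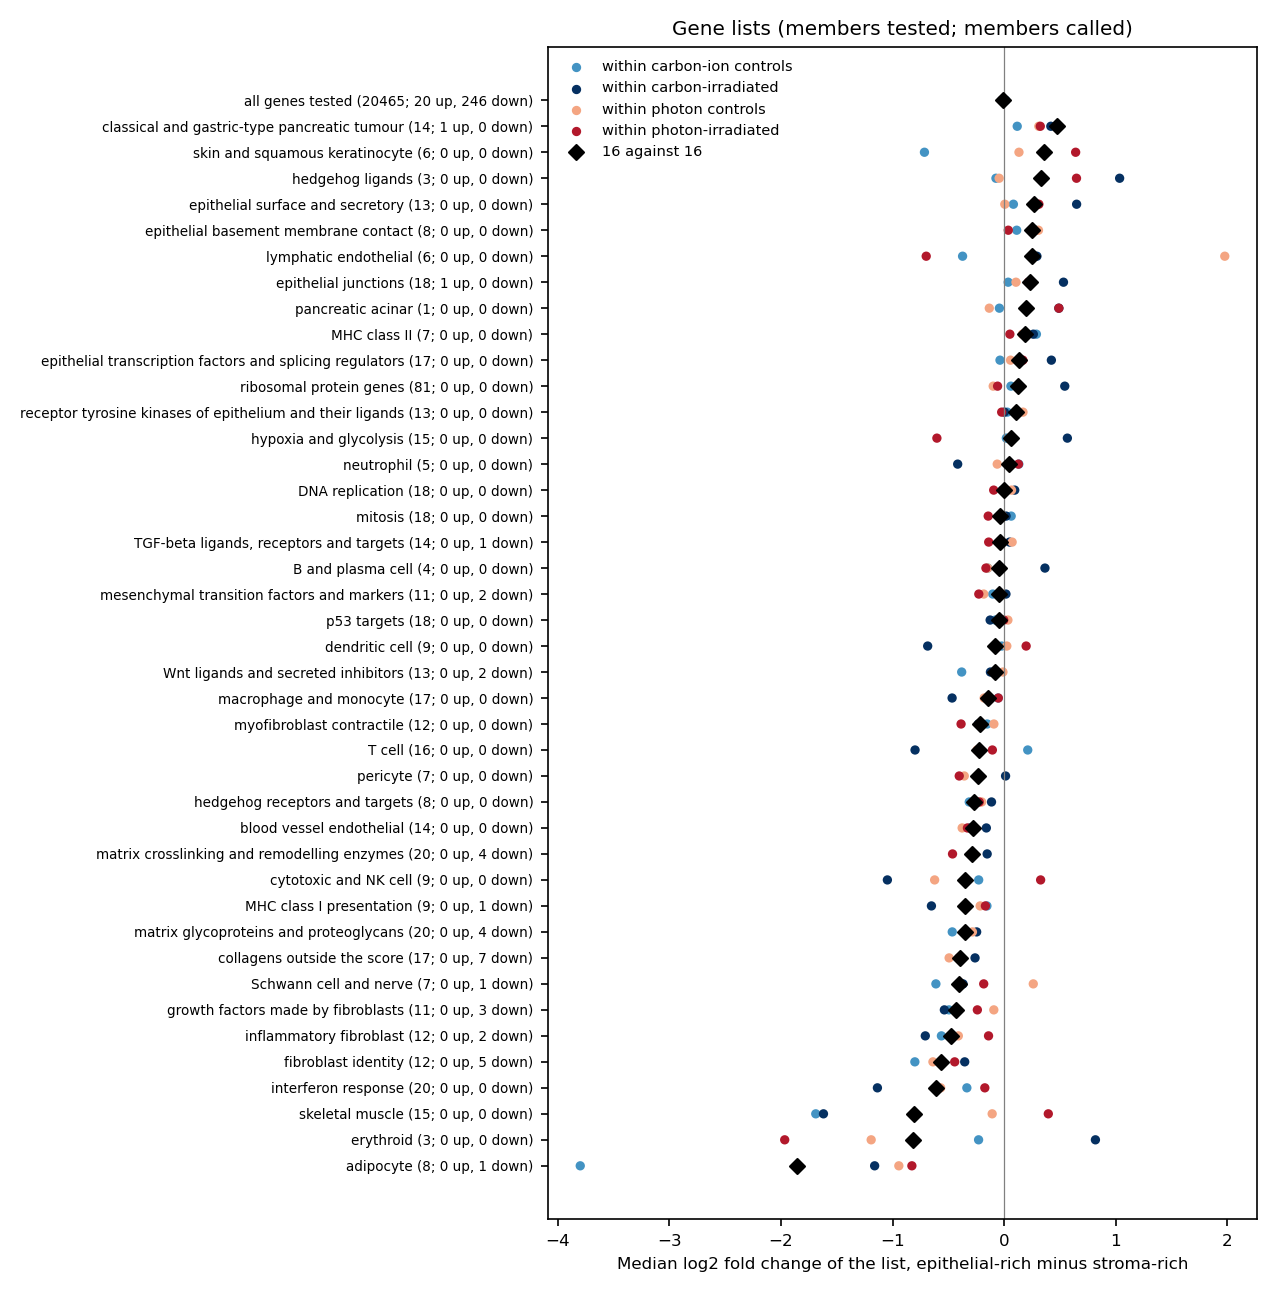
Median log2 fold change (epithelial-rich minus stroma-rich) of each list and of all genes tested, with a black diamond for 16 against 16 libraries and coloured points for the 4 treatment groups; the labels give the members tested and called. Fibroblast, matrix and vessel lists have medians below 0 and epithelial lists medians above 0, from -0.57 for fibroblast identity to 0.48 for the gastric-type list.

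Several collagens outside the score were lower in epithelial-rich tumours. Of 17, 7 were called lower (against 1.2% of all genes) and none higher, 14 were below 0, and the median was -0.40. The median was -0.40 in carbon-ion controls, -0.26 in carbon-irradiated tumours, -0.49 in photon controls and -0.41 in photon-irradiated tumours. The called genes were Col1a2, the fibril regulators Col5a1, Col5a2 and Col5a3, the fibril-associated Col12a1 and Col16a1, and Col6a3 of the beaded microfibrils.

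Col1a2, the partner chain of the score gene Col1a1, had a lowest, median and highest level of 1471, 2785 and 4108 CPM in epithelial-rich tumours and of 2345, 3860 and 6224 CPM in stroma-rich tumours. Its log2 fold change was -0.48 (SE 0.11, edgeR adjusted p = 0.0247). The sets did not overlap for Col1a2 in photon-irradiated tumours, at 2584 to 3112 CPM against 3314 to 4162 CPM, and overlapped in the other 3 groups. Col16a1 had -0.71 (SE 0.14, edgeR adjusted p = 0.0151). With 1 library left out in turn, Col16a1 was called in 32 of 32 fits, Col5a2 in 28, Col1a2 in 26, Col12a1 in 18, Col5a3 in 11, Col5a1 in 10 and Col6a3 in 7. Of the 17 collagens 3 were called with the ribosomal term, 4 without the carbon-irradiated group and none with M titles.

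Matrix glycoproteins and the enzymes that build or cut matrix had called members on the same side. Of 20 glycoproteins and proteoglycans, 4 were called lower (against 1.2% of all genes) and 19 lay below 0, with a median of -0.35. They were the elastic fibre gene Mfap4 (-0.53), Aebp1 (-0.58), the proteoglycan Bgn (-0.42) and the matrix protease Ctsk (-0.60), which was counted in this list although it encodes an enzyme. With 1 library left out these 4 were called in 13, 21, 6 and 9 of 32 fits. Of the 20 genes 1 was called with the ribosomal term, 3 without the carbon-irradiated group and none with M titles. Of 20 enzymes, 4 were called lower and 18 lay below 0, with a median of -0.29, and the called genes were Mmp2, Lox, Adamts2 and Adamts5. With 1 library left out these were called in 27, 11, 6 and 15 of 32 fits. No enzyme was called with M titles or without the carbon-irradiated group, and 1 was with the ribosomal term. The gelatinase Mmp2 had a log2 fold change of -0.78 (edgeR adjusted p = 0.0247), the crosslinking enzyme Lox one of -0.76 and the aggrecanase Adamts5 one of -1.12. Fibronectin, Fn1, was not called between the sets at -0.22 (edgeR adjusted p = 0.385) and fell along the score (slope -0.32, edgeR adjusted p = 0.0141). Along the score, 13 of 17 collagens, 17 of 20 glycoproteins and 14 of 20 enzymes fell, against 6.88% of all genes.

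Some fibroblast genes were lower in epithelial-rich tumours. Of 12 identity genes, 5 were lower (against 1.2% of all genes), all 12 lay below 0 and the median was -0.57. Of these 12 genes 4 were called with the ribosomal term, 2 without the carbon-irradiated group and none with M titles. Of 12 contractile myofibroblast genes all lay below 0 with a median of -0.22, but none was called between the sets or along the score. Of 12 genes of inflammatory fibroblasts all lay below 0 with a median of -0.48, and 2 were called, the chemokine gene Cxcl12 and the complement gene C4b (-1.27, edgeR adjusted p = 0.0345). In that list 1 gene was called with the ribosomal term and none without the carbon-irradiated group or with M titles. Acta2, smooth muscle actin, had -0.23 (edgeR adjusted p = 0.348), and Fap, a surface protease of activated fibroblasts, had -0.03 (edgeR adjusted p = 0.906).

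Gas1, a surface co-receptor for hedgehog ligands (GRCm38 chr13:60174405-60177365), had the smallest p of all genes. Its lowest, median and highest levels were 25.3, 36.6 and 66.3 CPM in epithelial-rich tumours and 33.9, 61.3 and 91.5 CPM in stroma-rich tumours. The log2 fold change was -0.64 (SE 0.10, edgeR adjusted p = 0.00461). The sets did not overlap for Gas1 in carbon-ion controls, at 25.3 to 37.11 CPM against 44.81 to 72.52 CPM. In the other groups the highest epithelial-rich library exceeded the lowest stroma-rich one.

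Pdgfra, the platelet-derived growth factor receptor of fibroblasts, had 34.1, 50.8 and 94.9 CPM in epithelial-rich tumours and 46.1, 81.9 and 159 CPM in stroma-rich tumours, with a log2 fold change of -0.62 (SE 0.12, edgeR adjusted p = 0.0118). Pdpn, a mucin-type glycoprotein of fibroblasts and lymphatic vessels, had -0.69. Gas1 and Pdgfra were called with each of the 32 libraries left out in turn.

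The 10 genes named for the largest differences in the other direction, all lower in epithelial-rich tumours, were Pi16, Serpina3n, Tnxb, Prg4, Sfrp1, Dpt, Sfrp2, Ccn5, Cxcl12 and Steap4, with log2 fold changes from -2.38 to -1.47. Pi16, a marker of adventitial fibroblasts (GRCm38 chr17:29317680-29330593), had 0.839, 6.36 and 20.4 CPM in epithelial-rich tumours and 0.926, 18.4 and 177 CPM in stroma-rich tumours. Its log2 fold change was -2.38 (SE 0.51, edgeR adjusted p = 0.0193). The stroma-rich set spread far more than the epithelial-rich set, and the sets did not overlap for Pi16 in carbon-ion controls, at 0.8392 to 7.536 CPM against 10.31 to 47.83 CPM.

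Sfrp2, a secreted Wnt modulator of fibroblasts, had 7.42, 26.4 and 47.6 CPM in epithelial-rich tumours and 12.8, 67.4 and 180 CPM in stroma-rich tumours (log2 fold change -1.59, SE 0.32, edgeR adjusted p = 0.0153). The sets did not overlap for Sfrp2 in either control group and overlapped in both irradiated groups. Its relative Sfrp1 had -1.79 (SE 0.38, edgeR adjusted p = 0.0193), and these were the 2 members called among 13 Wnt ligands and inhibitors (against 1.2% of all genes called lower). Cxcl12, the chemokine that binds CXCR4, had 5.73, 17.3 and 50.4 CPM against 13.4, 51.3 and 175 CPM (log2 fold change -1.51, SE 0.34, edgeR adjusted p = 0.0244).

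Prg4, which encodes the lubricant lubricin, Tnxb, the matrix protein tenascin X, and Dpt, dermatopontin, had log2 fold changes of -2.09, -2.10 and -1.60. Tnxb ranged from 2.57 to 35.5 CPM in epithelial-rich and from 2.21 to 391 CPM in stroma-rich tumours, so the lowest value of all lay in the stroma-rich set. It belonged to photon control replicate 2, which had the second-lowest score of its group yet also had 5.13 CPM of Pi16, 4.19 CPM of Serpina3n and 0.843 CPM of Prg4, beside 5921 CPM of Col1a2 and 91.0 CPM of Sfrp2. High collagen and high levels of these genes were thus separate in that tumour. With each of 32 libraries left out in turn, Serpina3n was called 14 times (log2 fold change from -2.69 to -1.89), Tnxb 13 times (-2.24 to -1.50) and Prg4 11 times (-2.43 to -1.63), against 29 times for Pi16 and 31 times for Sfrp2.

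Of the 20 genes named by size, 9 overlap another annotated gene on the other strand and 2 of these also on the same strand, so their estimated counts carry that uncertainty where strand was not used in counting.

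Several fat-cell genes fell along the score. Of 8 adipocyte genes 1, Fabp4, a fatty acid carrier of fat cells and some vessels, was called lower in epithelial-rich tumours (log2 fold change -1.70, edgeR adjusted p = 0.0298), against 1.2% of all genes. Along the score 5 of the 8 fell, as did 6.88% of all genes, while Pparg, a regulator of fat cells that other cells also express, rose. Their summed level was 41.2, 68.8 and 109 CPM at lowest, median and highest in epithelial-rich tumours and 37.2, 61.4 and 436 CPM in stroma-rich tumours. Skeletal muscle genes summed to 24.4, 715 and 3030 CPM against 22.7, 446 and 8382 CPM, with none of 15 called and a median of -0.81. No list gene of either tissue was at 0 in every library. With the skeletal muscle score as an added term, 323 genes were called between the sets (22 higher and 301 lower), 254 of the 266 among them and all 266 with the same sign. The part of fat in the differences above was not tested.

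**Figure D3:**
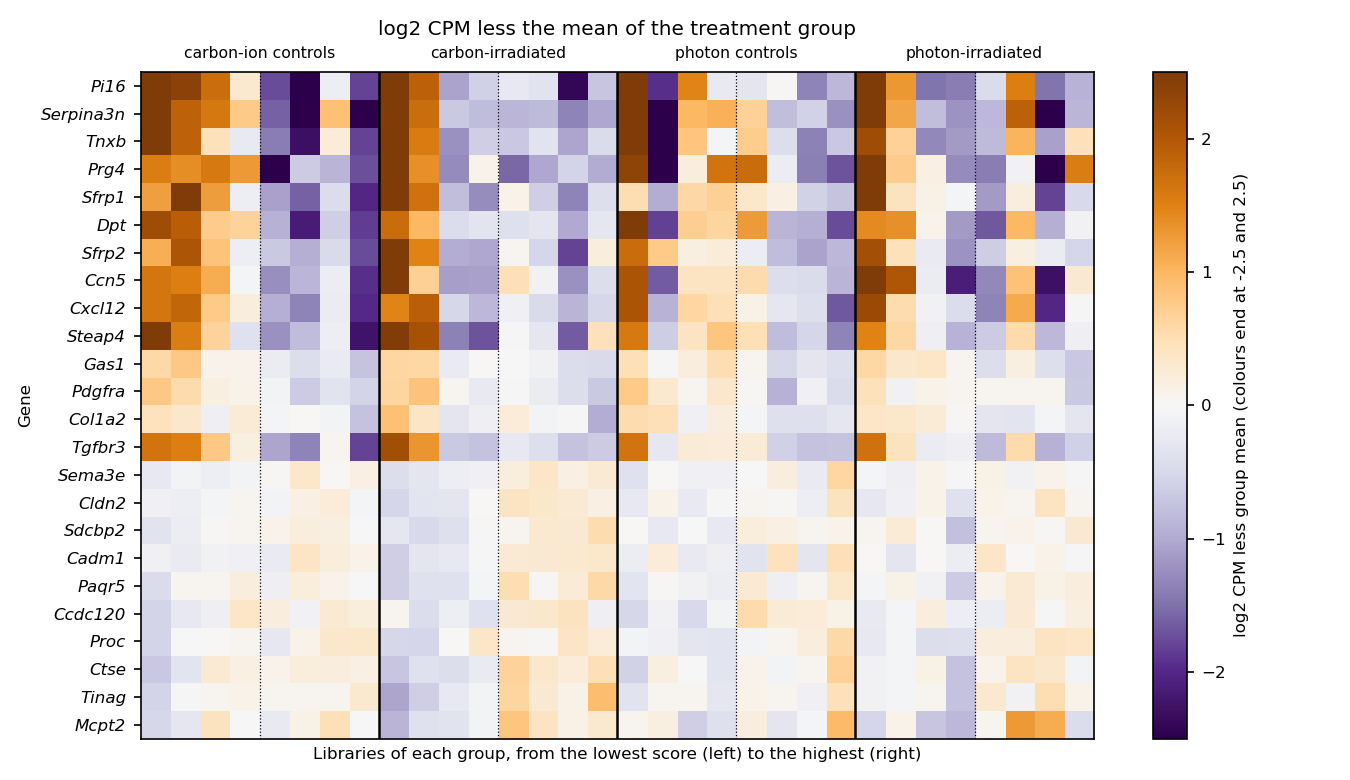
Expression of 24 genes in 32 libraries as log2 CPM minus the mean of the gene in its treatment group, with colours ending at -2.5 and 2.5. Within each group the libraries run from the lowest to the highest score, with a dotted line between the sets, and the fibroblast genes are far above the group mean in some libraries of low score rather than in all 4 of each stroma-rich set.

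Some growth factor genes that fibroblasts supply were lower in epithelial-rich tumours. Of 11 growth factors made by fibroblasts 3 were called lower (against 1.2% of all genes), with a median of -0.43. None was called with M titles and 1 without the carbon-irradiated group. Fgf7, the keratinocyte growth factor that acts on epithelium, had a log2 fold change of -1.77 (SE 0.32, edgeR adjusted p = 0.0112), and the sets did not overlap for Fgf7 in carbon-ion controls, at 0.5467 to 1.911 CPM against 3.192 to 9.796 CPM. Igf1 had -0.94 (edgeR adjusted p = 0.0237) and the vessel growth factor Vegfd -0.87 (edgeR adjusted p = 0.0499).

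Epithelial receptors and their ligands, 13 genes, had a median of 0.10 and no call. Along the score Met, the receptor of hepatocyte growth factor, rose (slope 0.18, edgeR adjusted p = 0.00901), and Egfr fell (slope -0.18, edgeR adjusted p = 0.0204). Tgfbr3, a co-receptor of the TGF-beta family, was called, with 6.001, 15.7 and 50.7 CPM in epithelial-rich and 11.6, 42.6 and 135 CPM in stroma-rich tumours (log2 fold change -1.39, SE 0.28, edgeR adjusted p = 0.0153). It was the 1 called gene among 14 TGF-beta genes (against 1.2% of all genes called lower), whose median was -0.04.

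Hedgehog ligands are made by pancreatic tumour epithelium and read by the stroma. Of 3 ligand genes none was called, with a median of 0.33 and a log2 fold change of 0.77 for Shh (edgeR adjusted p = 0.235). The co-receptor gene Gas1, counted here among fibroblast identity genes, was lower in epithelial-rich tumours, as given above. Of the 8 genes in the list of receptors and targets, which does not hold Gas1, none was called between the sets, with a median of -0.27 and 0.06 for the target Ptch1 (edgeR adjusted p = 0.603). Along the score 4 of these 8 fell (against 6.88% of all genes), including the co-receptor Boc (slope -0.50, edgeR adjusted p = 0.000140) and the transducer Smo (slope -0.48, edgeR adjusted p = 0.00144).

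Vessel genes were below 0 throughout without passing the test between the sets. All 14 endothelial genes were below 0 with a median of -0.28, and 10 fell along the score (against 6.88% of all genes). Plvap, a protein of fenestrated vessels, had -0.53 (edgeR adjusted p = 0.0597) and a slope of -0.59 (edgeR adjusted p = 9.63e-06). The summed endothelial level was 357, 468 and 599 CPM in epithelial-rich tumours and 419, 522 and 1022 CPM in stroma-rich tumours. All 7 pericyte genes were below 0 with a median of -0.24, and 3 fell along the score.

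Lists of immune cell markers gave no call between the sets. Macrophage genes (17, median -0.15), T cell genes (16, median -0.23), cytotoxic and NK cell genes (9, median -0.35), dendritic cell genes (9, median -0.08) and neutrophil genes (5, median 0.04) were not called. Along the score 7 macrophage genes fell (6.88% of all genes did), with Cd163, a scavenger receptor of tissue macrophages, at a slope of -1.08 (edgeR adjusted p = 0.000798), while no T cell gene passed. The cytotoxic granule genes Gzma (slope -0.92, edgeR adjusted p = 0.0130) and Gzmb (slope -0.65, edgeR adjusted p = 0.0316) and the dendritic cell gene Cd209a also fell.

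Among genes of antigen presentation, 1 was called between the sets. Of 9 class I presentation genes, 8 were below 0 with a median of -0.35. The peptide transporter Tap2 was called (log2 fold change -0.46, edgeR adjusted p = 0.0315), against 1.2% of all genes called lower. Tap2 was called in 19 of 32 fits with 1 library left out, and no class I gene was called with the ribosomal term, with M titles or without the carbon-irradiated group. Along the score 7 of the 9 fell (6.88% of all genes), among them Tap1, the partner of Tap2 (slope -0.49, edgeR adjusted p = 0.0101). All 7 class II genes were above 0 with a median of 0.19, and none was called by either measure. Cd74, the invariant chain, had 0.25 (edgeR adjusted p = 0.179).

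Interferon response genes were not called between the sets. None of 20 passed between the sets, 19 lay below 0, and the median was -0.61. The median was -0.34 in carbon-ion controls, -1.14 in carbon-irradiated tumours, -0.57 in photon controls and -0.17 in photon-irradiated tumours. Along the score 11 of 20 fell (6.88% of all genes), with the antiviral enzyme Oas2 at -1.06 (edgeR adjusted p = 0.000457) and the regulator Irf7 at -0.78 (edgeR adjusted p = 0.00729).

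Proliferation and damage genes did not separate the sets. Of 18 mitosis genes, 18 replication genes and 18 p53 targets none was called between the sets or along the score, and the medians were -0.04, 0.00 and -0.05. Mki67, a protein of cycling cells, had a log2 fold change of -0.15 (edgeR adjusted p = 0.632). Hypoxia and glycolysis genes had a median of 0.06 with no call, but medians of 0.57 in carbon-irradiated and -0.60 in photon-irradiated tumours.

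Differences between the sets were also fitted group by group, a fit added after seeing the data. No gene was called within carbon-ion controls, photon controls or photon-irradiated tumours (edgeR quasi-likelihood test), where 1008, 671 and 735 genes had an unadjusted p under 0.05. Within carbon-irradiated tumours 5229 genes were called (25.6%), of which 2594 were higher (12.7%) and 2635 lower (12.9%) in the epithelial-rich set. With upper-quartile scaling these were 1138 and 3524, a balance of directions that changed with the scaling.

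Of the lower genes 1656 (62.8%) were predicted or clone-named genes, against 100 (3.86%) of the higher genes and 25.7% of all genes tested. Ribosomal protein genes were higher in 48 of 81 cases with a median of 0.54, against medians of 0.06, -0.10 and -0.06 in carbon-ion controls, photon controls and photon-irradiated tumours. Their mean log2 CPM was 7.64 to 8.71 in the epithelial-rich and 7.53 to 7.82 in the stroma-rich carbon-irradiated libraries, and that of predicted genes -0.64 to 0.00 against 0.03 to 0.61. The part of RNA quality or library composition in these classes was not tested.

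**Figure D4:**
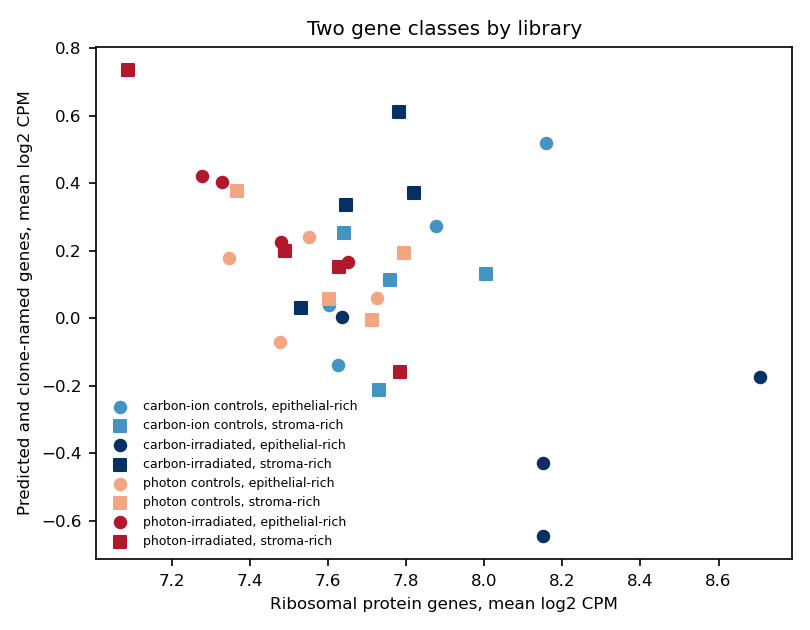
Mean log2 CPM of ribosomal protein genes (horizontal) against that of predicted and clone-named genes (vertical), with 1 point per library, coloured by treatment group and shaped by set. The carbon-irradiated epithelial-rich libraries (dark blue circles) have the lowest predicted-gene means of that group, at -0.64 to 0.00 against 0.03 to 0.61, and 3 of these 4 also have high ribosomal means.

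Within carbon-irradiated tumours, 9 of 18 junction genes were higher in the epithelial-rich set (against 12.7% of all genes), among them Dsc2 (0.95), Ocln (0.83) and Dsg2 (0.77). Of 15 hypoxia and glycolysis genes 5 were higher, among them Ndrg1 (1.14) and the glucose transporter Slc2a1 (0.89). Of 20 interferon response genes 7 were lower (against 12.9% of all genes), among them Oas2 (-2.57), Irf7 (-1.61) and Ifit2 (-1.39), and of 9 MHC class I genes 4 were lower, among them the regulator Nlrc5 (-1.64) and Tap1 (-1.13). Oas2 levels did not overlap there, at 1.312 to 4.211 CPM in epithelial-rich and 9.057 to 28.87 CPM in stroma-rich libraries.

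That list of 5229 genes fell to 0 when the pair of carbon-irradiated replicates 6 and 7 exchanged sets (Krt19 left out of the score; 2704 genes at an unadjusted p under 0.05) and among libraries with M titles (4279 at an unadjusted p under 0.05). It was 711 with ribosomal protein level as a further term and 1295 with the score as a slope. Without carbon-irradiated replicate 2, which had the highest ribosomal level, it was 2691, and without replicate 1 it was 3057.

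Whether the difference between the sets itself changed after irradiation was tested as an interaction. After carbon ions 2 genes passed (0.00977%; edgeR quasi-likelihood interaction test), the predicted genes Gm36756 and Gm15764, with 5082 genes at an unadjusted p under 0.05. This count was 69 with DESeq2 size factors, 1601 with DESeq2 and 0 with the ribosomal term or with M titles, and it reached 2690 without carbon-irradiated replicate 4. In carbon-irradiated tumours Gm36756 was at 0.0402 to 0.117 CPM in epithelial-rich and 0.3725 to 0.6439 CPM in stroma-rich libraries, and in controls at 0.3514 to 0.5127 CPM against 0.08867 to 0.212 CPM. Both genes are of low level and each overlaps an annotated gene on the other strand. Of the named genes, Insig2, a regulator of sterol synthesis, had an interaction of 0.80 (SE 0.15, edgeR adjusted p = 0.0546). After photons no gene passed in edgeR (607 at an unadjusted p under 0.05) and 4 did in DESeq2, and the first named gene, Sema4f, had -1.04 (SE 0.27, edgeR adjusted p = 0.999).

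The photon effect was fitted with and without the score. Photon-irradiated tumours differed from their controls in 273 genes with the score as covariate (1.33%; 147 higher and 126 lower, or 273 and 131 with upper-quartile scaling) and in 781 without it (3.82%; 351 higher and 430 lower). Of these 254 were called in both with the same sign, 527 were called only without the covariate and 19 only with it. Of the 527, 11 were genes called between the sets, as were 266 of the 20465 tested (1.3%). The polycomb gene Cbx7 was higher by 1.01 with the covariate (edgeR adjusted p = 5.06e-06) and by 1.12 without, and the integrin gene Itgae was lower at -1.59 with it (edgeR adjusted p = 0.000157). The 2 fits share all their libraries. With the set in place of the score 1031 genes were called, and with skeletal muscle level as a further term beside the score 43. Mean log2 CPM of muscle genes averaged 3.502 in epithelial-rich and 3.65 in stroma-rich photon controls, and 0.29 and 0.70 after irradiation. Leaving out photon control replicate 1 reduced the number with the covariate to 58, and leaving out replicate 2 of that group raised it to 1008.

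The medians of several lists differed between the fits, without a test of that difference. Over all genes 3.82% were called without the covariate and 1.33% with it, so fewer calls in a list also follow that general fall. The lists held 17 collagen, 12 fibroblast identity, 14 endothelial, 18 mitosis, 20 interferon response and 7 MHC class II genes. Collagen genes had a median photon effect of -0.44 without the covariate, with 4 called, and of -0.27 with it, with 1 called, Col15a1. Fibroblast identity genes had -0.52 with 2 called against -0.37 with none, endothelial genes -0.44 with 2 called against -0.25 with none, and mitosis genes -0.56 with 4 called against -0.54 with none. Interferon response genes went from a median of 0.49 with 1 called to 0.80 with 6 called. Isg15, an interferon-induced ubiquitin-like modifier, had 1.09 (edgeR adjusted p = 0.124) without and 1.55 (edgeR adjusted p = 0.0424) with the covariate, while Usp18 was the gene called by both fits. MHC class II genes changed little, at -0.62 with 5 called and -0.67 with 5 called, among them Ciita (-0.74), the regulator of the class.

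**Figure D5:**
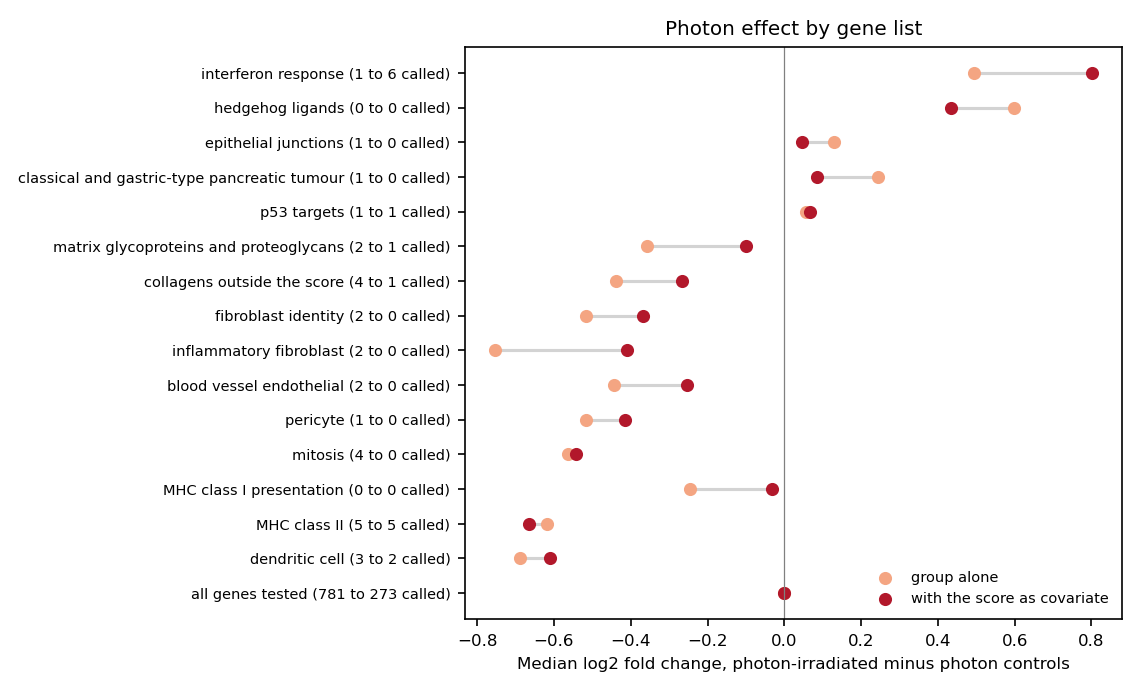
Median photon effect (log2 fold change, irradiated minus control) of selected lists, without the covariate (light points) and with the score as covariate (dark points), with the genes called by each in the labels. Interferon response genes move away from 0, from 0.49 to 0.80, and collagen, fibroblast and vessel lists move towards 0.

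The carbon-ion effect gave no call with or without the score (edgeR quasi-likelihood test; 1261 and 1177 genes at an unadjusted p under 0.05), and the smallest adjusted p with the covariate was 0.0874. Among the genes of smallest p were Xaf1, a pro-apoptotic interferon-induced gene, at 1.18 (edgeR adjusted p = 0.0874), and Ifit1, an antiviral gene, at 2.17 (edgeR adjusted p = 0.116). DESeq2 called 60 genes for the same model.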

How the data were processed

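Bulk RNA sequencing of tumour tissue was deposited for 32 libraries as 1 table of 55103 gene symbols. Its values are estimated counts per gene that the authors deposited without normalization, per the file headers and the values, none of which was whole among 853648 above 0 (tolerance 1e-09). Per the labels' protocols, RNA came from tissue kept in RNAlater, was extracted with a Qiagen kit and was made into stranded mRNA libraries. The submitters' processing notes name RSEM 1.3.3, Trimmomatic 0.32, FastQC 0.12.0 and the build mm10, with no role or order; the aligner, the gene models and the use of strand in counting are not given in the sources used here. Counts of near-identical gene copies are therefore uncertain. The tests were planned for whole counts, so estimated counts were rounded, which changed library totals by at most 0.00403%.

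Scores used CPM of the column total with a pseudocount of 1. Genes were kept with filterByExpr of edgeR (minimum count 10), which left 20465, scaled by trimmed mean of M values and tested with quasi-likelihood F tests (R 4.3.3, edgeR 4.0.16, limma 3.58.1), with Benjamini-Hochberg adjustment over all genes and a threshold of 0.05. Treatment group was the block, and 1 fit held all 32 libraries. Standard errors came from the F statistic. CPM of single genes is TMM-scaled, and log2 CPM used a prior count of 2. DESeq2 1.42.0, other scalings, other sets, added terms and left-out libraries were alternatives. Scores between groups were tested by exact permutation in Python 3.11.15. Tables used pandas 2.3.3 and figures matplotlib 3.10.9. The code was tested on simulated data.

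Of 509 genes in 40 lists, 507 had a row in the table and 468 passed the filter. The members and the lists were chosen with earlier results of these data known. Named genes were the 10 highest and 10 lowest log2 fold changes among genes past the threshold, with the same sign in 4 groups and mean log2 CPM no lower than 2, passing over predicted and score genes, plus the extremes and the most abundant gene of each list, 12 fixed genes and the 3 genes of smallest p for each interaction and adjusted treatment effect. The text gives those that the results turn on, and the other genes of a list by its counts and median; 1 gene of smallest p is not reported here. Promoters are the RefSeq windows of GRCm38.p6, and gene positions come from the mouse annotation of the same build.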

Additional observations from a re-analysis of the deposited data

Results flagged for a closer look

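The score of photon-irradiated replicate 5 was -1.2844 and stood apart from the other 7 libraries of its group: its gap to the nearest value was 0.6414 of the range of the group. Values of 24 groups were examined in this way, and chance would single out about 1 in 20.

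The difference between epithelial-rich and stroma-rich tumours changed sign between carbon-ion controls and carbon-irradiated tumours for 2 predicted genes by the edgeR quasi-likelihood interaction test. For Gm36756 the interaction was -3.9707 (SE 0.64, adjusted p = 0.0130), from a log2 fold change of 1.43 in controls to -2.54 after irradiation. For Gm15764 it was -3.9107 (SE 0.64, adjusted p = 0.0130), from 1.72 to -2.20. Gm15764 was at 0.7165 to 2.031 CPM in epithelial-rich and 0.2364 to 0.5013 CPM in stroma-rich controls, and at 0.09718 to 0.2412 CPM against 0.5194 to 0.916 CPM after irradiation. Predicted genes as a class were lower in the epithelial-rich carbon-irradiated libraries, and the part of that shift in these values was not tested.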

How the results depend on the processing

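The sets cut a continuous score, and the number of genes called between them (266) moved with the cut and with the model: 439 with upper-quartile scaling, 745 with DESeq2, 0 with M titles only, 157 with the title letter and 146 with ribosomal protein level as a term, 1204 with score genes scaled to unit variance, 20 without Epcam, 18 without Krt8, Krt18 or Dcn, 452 without Col1a1, 81 without the group block, 54 without the carbon-irradiated group and 1887 with the score as a slope. Leaving out 1 library gave 43 (without photon-irradiated replicate 5) to 482 (without photon control replicate 2), and 18 of 32 libraries moved it by over 1.5 times: carbon-ion controls 1, 2, 4, 5, 6 and 7, carbon-irradiated 2, 3, 4, 5 and 8, photon controls 2, 3, 4 and 6, and photon-irradiated 1, 5 and 7. The slope count was 737 without the carbon-irradiated group, 1107 with M titles and 1108 (without carbon-irradiated replicate 8) to 2158 (without photon control replicate 1) with 1 library left out; the slope as a reported measure, the fit without the carbon-irradiated group and the ribosomal term were chosen after seeing the data. Within carbon-irradiated tumours the count was 0 with M titles or without Epcam, Krt19, Col1a1 or Col3a1, 711 with the ribosomal term, 1295 as a slope and 2691 to 6929 with 1 library left out. Interactions after carbon ions numbered 69 with DESeq2 size factors, 1601 with DESeq2, 0 with M titles or the ribosomal term, 1 as a slope and 0 to 2690 with 1 library left out (moved by carbon-ion controls 1, 2, 5 and 8, carbon-irradiated 3, 4, 7 and 8, photon controls 3, 4, 6 and 7, and photon-irradiated 3 and 6); after photons they numbered 4 with DESeq2 and 0 in each left-out fit. The carbon-ion effect with the covariate gave 60 with DESeq2 and 0 to 22 with 1 library left out (above 0 without carbon-irradiated 2 or 7 or photon-irradiated 1 or 4). The photon effect with the covariate gave 173 without a count filter, 404 with upper-quartile scaling, 769 with DESeq2, 43 with a muscle term, 781 without the covariate, 1031 with the set in its place and 58 to 1008 with 1 library left out (moved by photon controls 1, 2, 5 and 8 and photon-irradiated 5, 6 and 7). The cause was not tested for any of these.

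Score differences between groups ranged with 1 library left out from 0.563 to 0.916 (carbon-ion minus photon controls), -0.0521 to 0.354 (carbon-irradiated minus controls, with the sign changed without carbon-ion control replicate 5), 0.248 to 0.602 (irradiated) and 0.315 to 0.630 (photon-irradiated minus controls). Genes that were not called changed sign, among them Shh and Esrp1 from 0.77 and 0.44: Cldn4 to -0.008999 without Krt8, Krt18 or Dcn, Esrp1 to -0.1312 and Shh to -0.2173 without Epcam, Grhl2 to 0.1953 (M titles), 0.006479 (title letter) and 0.007839 (ribosomal term), Ptch1 to -0.01816 without the carbon-irradiated group, Vim to 0.0359 (12 against 12, without the libraries next to the boundary), 0.148 (unit variance), 0.1148 (without Epcam), 0.003731 (without Krt8, Krt18 or Dcn), 0.04289 (without Cdh1) and 0.02671 (without Col3a1), and Zeb1 to -0.02773 (upper quartile), -0.0005518 (title letter), -0.003904 (ribosomal term) and -0.006382 (without the carbon-irradiated group). With 1 library left out, Fap ranged from -0.07382 to 0.03443, Grhl2 from -0.08381 to 0.1025, Vim from -0.05679 to 0.02902 and Zeb1 from -0.01336 to 0.03387. No paired analysis was possible because replicate numbers follow the order of deposition and the labels carry no number shared between groups.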
